A study of Homo sapiens with 6 samples.

Results

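The transcripts of the 8 genes that encode the subunits of the condensin complexes were followed in U-2 OS cells after ionizing radiation (IR). The genes were chosen by name as subunits of these complexes, with earlier results of these data known. They are SMC2 and SMC4, which are shared by both complexes, NCAPG, NCAPH and NCAPD2, which are specific to condensin I, and NCAPG2, NCAPH2 and NCAPD3, which are specific to condensin II. All 8 were found once each among the 21447 genes to which the deposited transcripts were assigned, and all 8 passed the filter on low counts together with 14322 genes in all. U-2 OS is an established human osteosarcoma line. Unsynchronized cells were either left untreated or exposed to 4 Gy of IR and lysed 24 h later, with 3 RNA-seq libraries in each group. Both groups were the same line in the same medium with no further agent named, so that by the labels they differ in irradiation alone. The study's methods describe the 3 samples of a group as independent, and the p-values measure the spread between them.

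Condensins are ring-shaped ATPases that extrude DNA loops and fold chromatids into compact rods for mitosis. SMC2 and SMC4 are long coiled-coil proteins that pair through their hinges and bind ATP at their heads. The kleisin subunit, NCAPH or NCAPH2, bridges the heads and carries a pair of HEAT-repeat subunits, NCAPG with NCAPD2 or NCAPG2 with NCAPD3. Condensin II is nuclear through interphase and starts to act in prophase, whereas most condensin I reaches the chromosomes after the nuclear envelope has broken down. Many genes with a mitotic role are transcribed mainly in G2 and M phase under control of the MuvB complex, which binds the cell cycle genes homology region (CHR), a short promoter element with the letters TTTGAA or close to them. MuvB acts in DREAM, a repressor, and together with B-MYB and FOXM1, which activate.

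Sequences around these letters are given because they are a feature that the choice of genes did not use and that can be read beside the changes below. RefSeq promoter windows on GRCh38.p14 of 300 bases, from 250 before to 50 after the start of the canonical transcript, were held for 7 of the 8 genes. NCAPH2 had no entry. TTTGAA was searched on both strands, so that it reads TTCAAA when it lies on the other strand. It was found in 6 of the 7 windows, against 15.2% of 35116 windows of the same length. NCAPH, the only one of the 7 without it, held the related TTTAAA, which was in 12.2% of all windows. TTCGAA was in 0 of the 7 windows and in 1.45% of all windows. The letters CCAAT were in 3 of the 7 windows, those of NCAPH, NCAPD2 and NCAPD3, and in 34.6% of all. An E2F motif, TTTGGCGC, TTTCCCGC, TTTGCCGC or TTTCGCGC on either strand, was in 1 of the 7 windows, that of NCAPD3, and in 3.31% of all. Each match is a description of the letters and not a site of binding. The stretches below run from 12 bases before to 12 after the match where the window allows, 5′ to 3′ on the strand of the gene, with the match in capitals.
SMC2, chr9:104094294-104094323, plus strand: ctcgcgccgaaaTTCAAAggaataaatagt
SMC4, chr3:160399563-160399592, plus strand: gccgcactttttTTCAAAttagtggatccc
NCAPG, chr4:17810932-17810961, plus strand: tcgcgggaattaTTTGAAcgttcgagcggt
NCAPH, chr2:96335786-96335815, plus strand: cgacgcgcgcgaTTTAAAaccagctcagga
NCAPD2, chr12:6493945-6493974, plus strand: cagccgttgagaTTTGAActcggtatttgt
NCAPG2, chr7:158704755-158704781, minus strand: ccggcgggtgcgTTTGAAtctggtccg
NCAPD3, chr11:134223953-134223982, minus strand: gcgggagcgagcTTTGAAagttgagcacgg

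Only these windows were searched, so a match could lie at most 250 bases before or 50 after the annotated start. With the first transcribed base as +1, the first base of the match was at -3 in SMC2, -75 in SMC4, -35 in NCAPG, -145 in NCAPD2 and -3 in NCAPD3. In NCAPH and NCAPG2 the match lay downstream of the start, at +33 and +36. The genes themselves are spread over 8 chromosomes. On GRCh38, SMC2 spans chr9:104094260-104141419, SMC4 chr3:160399274-160434954, NCAPG chr4:17810979-17844865, NCAPH chr2:96335766-96377091 and NCAPD2 chr12:6493356-6531955, all on the plus strand. NCAPG2 spans chr7:158631169-158704804 on the minus strand, NCAPH2 chr22:50508224-50524780 on the plus strand and NCAPD3 chr11:134150113-134225504 on the minus strand. Their canonical transcripts have between 18 (NCAPH) and 35 (NCAPD3) exons.

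Depth was similar in 5 libraries, with 18573309 to 22953834 estimated counts, and higher in IR replicate 3, with 45308792. IR replicate 3 also stood apart from the other IR libraries, with a chi-square per gene of 28.0 and 31.1 against 5.95 between IR replicates 1 and 2, and values that rest on it are given below with and without it. Its deposited table is also named with a mark that no other library has, and the sources used here do not say whether it is a repeat run. The treatment was visible in the targets of p53, of which 12 of 12 rose, against 15.5% of all tested genes called higher. CDKN1A, which encodes the cyclin-dependent kinase inhibitor p21, rose from 122 ± 1.70 to 351 ± 34.9 CPM (SD, n = 3), which are counts scaled to the library size. Of the markers of the line, VIM, SPARC, COL1A1 and FN1 were abundant, with group means of 1017 to 3145 CPM. The osteoblast factor SP7 had no count in any library, TWIST1 and BGLAP were near 0, and COL1A2 was at 1.48 CPM in untreated cells. The leukocyte marker CD3E had no count, and PTPRC was at 1.49 CPM in untreated cells. Of the markers with enough counts to test, 1 of 9 mesenchymal and osteoblast genes was called lower (RUNX2) and 2 higher (COL5A1 and ALPL). Of the other lists, 1 of 4 epithelial genes (CDH1), 2 of 3 leukocyte genes (LCP1, from 5.09 to 7.32 CPM, and CD68, from 8.39 to 13.4 CPM) and 0 of 1 endothelial genes were called higher and 0 lower. These genes are named after their values were seen, and whether other cells have a part in the results was not tested.

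In untreated cells the subunit transcripts differed widely in level. Levels between genes are compared here as TPM, the deposited value scaled for effective transcript length and library total, summed per gene. SMC4 was the most abundant, with 433 ± 63.2 TPM (SD, n = 3), followed by NCAPD2 with 222 ± 2.42 TPM. NCAPH had 95.3 ± 6.37, NCAPG2 94.8 ± 8.13 and SMC2 80.6 ± 8.25 TPM, and in this part of the order neighbours overlapped between libraries. NCAPG had 69.1 ± 5.22, NCAPH2 38.1 ± 3.04 and NCAPD3 25.0 ± 4.47 TPM, each below the range of the gene before it. In TPM, SMC4 was thus at 17.3 times the level of NCAPD3. The order and the size of this range depend on the scale, and not only at the top. As CPM per kilobase of the longest transcript, NCAPD2 was at 132, SMC4 at 68.6, NCAPG2 at 46.7 and SMC2 at 29.4. NCAPH followed at 25.6, NCAPH2 at 21.2, NCAPG at 19.5 and NCAPD3 at 8.56. Transcripts shorter than 1000 bases held 62.3% of the TPM and 13.9% of the counts of SMC4 in untreated cells, and 32% and 4.32% of those of NCAPD2, and their part in this order was not tested.

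In the fit of all 6 libraries, SMC2 and SMC4, the shared core, had the lowest log2 fold changes of the 8 genes. After IR, SMC2 and SMC4 both fell, with no overlap between the groups. SMC2 measured 169, 175 and 186 CPM without IR and 121, 104 and 94.4 CPM with it, in the order of the replicate numbers, as for all values by library below. Each IR library was below each untreated library, and IR replicate 3 was the lowest. The mean of SMC2 went from 176 ± 8.62 to 107 ± 13.7 CPM (SD, n = 3), a log2 fold change of -0.73 (SE 0.09, 95% CI -0.93 to -0.52, adjusted p = 7.50e-04, edgeR quasi-likelihood test with Benjamini–Hochberg adjustment over all tested genes, as for the adjusted p-values below). SMC4 was at 361, 364 and 377 CPM in untreated cells and at 275, 242 and 193 CPM after IR. The IR libraries of SMC4 were spread more widely than the untreated ones, again with replicate 3 the lowest. Its mean went from 367 ± 8.25 to 237 ± 41.0 CPM, a log2 fold change of -0.64 (SE 0.11, 95% CI -0.88 to -0.39, adjusted p = 0.00271). Without IR replicate 3 the log2 fold change was -0.64 for SMC2 and -0.51 for SMC4, and that of NCAPD3, a condensin II subunit, was then below SMC4, at -0.55. In these bulk libraries, fewer cells in G2 or M phase and less of a transcript per cell cannot be told apart.

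The subunits of condensin I all fell. NCAPG, a HEAT-repeat subunit, was at 87.8, 88.0 and 91.9 CPM in untreated cells and at 68.0, 66.3 and 67.2 CPM after IR. Its IR libraries lay close together and below every untreated library. The log2 fold change was -0.41 (SE 0.06, 95% CI -0.55 to -0.28, adjusted p = 0.00145). NCAPH, the kleisin, was at 153, 154 and 157 CPM in untreated cells and at 134 CPM in each IR library. The spread within groups was small, and the decrease of 13.2% in the mean was the smallest among the genes that were called. Its log2 fold change was -0.20 (SE 0.06, 95% CI -0.33 to -0.08, adjusted p = 0.0237). NCAPD2, the other HEAT-repeat subunit, was at 639, 653 and 618 CPM in untreated cells and at 532, 527 and 560 CPM after IR. The groups did not overlap, and the gap between the lowest untreated and the highest IR library was wider than the range within either group. The log2 fold change of NCAPD2 was -0.24 (SE 0.06, 95% CI -0.37 to -0.10, adjusted p = 0.0158). The calls of NCAPH and NCAPD2 are the ones closest to the threshold. Leaving out 1 library ended the call of NCAPH for untreated replicates 1, 2 and 3 and IR replicate 2 (adjusted p of 0.0814, 0.0776, 0.0597 and 0.0775) and that of NCAPD2 for untreated replicates 1 and 2 and IR replicate 2 (0.0705, 0.0753 and 0.0569).

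Of the condensin II subunits, NCAPG2 and NCAPD3 fell and NCAPH2 was not called. NCAPG2 was at 236, 240 and 261 CPM in untreated cells and at 183, 176 and 177 CPM after IR. Its groups were far apart, with a log2 fold change of -0.46 (SE 0.06, 95% CI -0.60 to -0.32, adjusted p = 0.00121). NCAPD3 was at 68.1, 65.0 and 56.2 CPM in untreated cells and at 44.2, 42.0 and 42.5 CPM after IR. The untreated libraries of NCAPD3 varied more than the IR libraries, yet the lowest of them was above the highest IR library. The log2 fold change of NCAPD3 was -0.56 (SE 0.08, 95% CI -0.74 to -0.38, adjusted p = 0.00139), the lowest value of a subunit outside the core. NCAPH2, the kleisin of condensin II, was at 71.1, 72.1 and 69.1 CPM in untreated cells and at 61.0, 64.9 and 90.7 CPM after IR. IR replicates 1 and 2 were below every untreated library and IR replicate 3 was above them all. The log2 fold change of NCAPH2 was 0.04 (SE 0.13, 95% CI -0.25 to 0.32, adjusted p = 0.849), and without IR replicate 3 it was -0.17 (adjusted p = 0.0712).

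**Figure D1:**
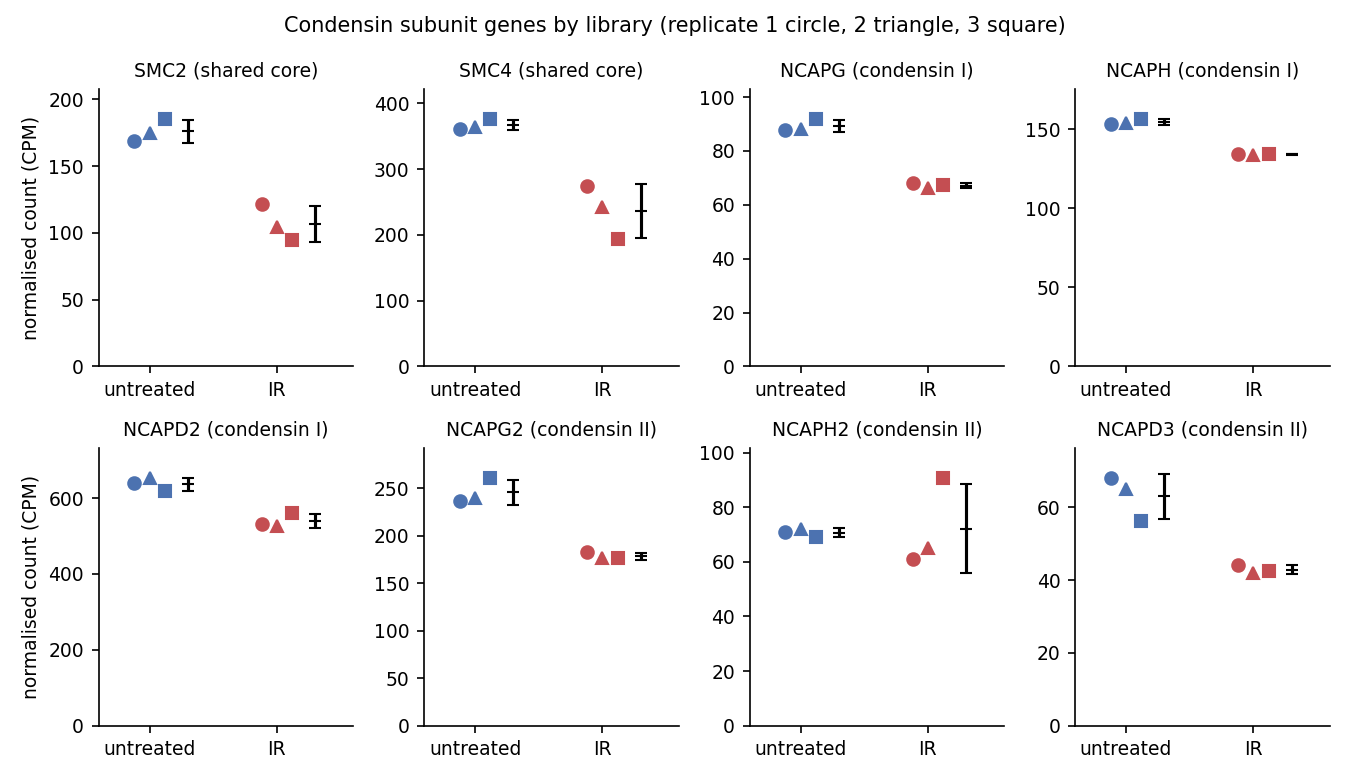
Normalised counts (CPM, vertical axis from 0) of the 8 condensin subunit genes in the 3 untreated (blue) and 3 IR (red) libraries, with the replicate given by the symbol and the mean ± SD of each group in black. In 7 panels every IR library lies below every untreated library, whereas NCAPH2 in IR replicate 3 lies at 90.7 CPM, above the untreated range.

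Counted over the genes, 7 of 8 were called lower and 0 higher after IR, against 14.5% of the 14322 tested genes called lower. In these 7 the groups did not overlap, as was the case with a lower IR group in 23.3% of the tested genes. The exact permutation test of a single gene gave p = 0.1 for each of the 7, the smallest two-sided value that 3 libraries against 3 allow. The median log2 fold change was -0.68 for the 2 core genes, -0.24 for the 3 condensin I genes, -0.46 for the 3 condensin II genes and -0.43 for all 8, beside 0.01 for all tested genes. The 95% intervals of both core genes lay below those of NCAPH and NCAPD2, but a difference between the core, condensin I and condensin II as groups was not tested.

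Whether the complexes changed relative to each other was asked with the ratio of corresponding subunits within each library. Of the 4 pairs formed, SMC2 over SMC4 lies within the shared core and does not compare the complexes. The log2 ratio of NCAPD2 over NCAPD3 in CPM was 3.23, 3.33 and 3.46 in untreated cells and 3.59, 3.65 and 3.72 after IR. In CPM the groups did not overlap, and the mean rose from 3.34 ± 0.12 to 3.65 ± 0.07, a difference of 0.31 (exact permutation test, two-sided p = 0.1, the smallest possible, 0.3 after Benjamini–Hochberg adjustment over the 4 pairs). In deposited TPM the difference was 0.34 and with protein-coding transcripts alone 0.3. On both of these scales the exact p was 0.2 and the groups overlapped. The log2 ratio of NCAPG over NCAPG2 was -1.46 ± 0.04 in untreated cells and -1.41 ± 0.02 after IR, a difference of 0.05 with overlapping groups (exact p = 0.2, adjusted 0.3). That of NCAPH over NCAPH2 went from 1.13 ± 0.05 to 0.92 ± 0.31, a difference of -0.21 (exact p = 0.3, adjusted 0.3) that was -0.04 without IR replicate 3. That of SMC2 over SMC4 went from -1.06 ± 0.04 to -1.14 ± 0.10, a difference of -0.08 (exact p = 0.3, adjusted 0.3) that was -0.14 without IR replicate 3 and -0.04 without IR replicate 2. For this pair the difference was -0.27 in deposited TPM (exact p = 0.1) and 0.16 with protein-coding transcripts alone (exact p = 0.5). No pair passed the threshold of 0.05, which this design cannot reach. As a description, the 3 subunits of condensin I held 72.4%, 71.0% and 69.7% of the summed TPM of the subunits specific to either complex in untreated cells, and 71.8%, 71.8% and 69.5% after IR. The summed TPM of the core was 451, 497 and 591 in untreated cells and 340, 302 and 250 after IR. The sum for condensin I was 389, 389 and 381 TPM before and 309, 269 and 326 TPM after IR. The sum for condensin II was 149, 159 and 166 TPM before and 121, 106 and 143 TPM after IR. In each of the 3 sums the groups did not overlap, while the share of condensin I did. How many of all genes lacked overlap in TPM was not counted. SMC4, with a mean of 433 TPM in untreated cells, made up most of the core sum. NCAPD2, with 222 TPM, made up most of the condensin I sum, so these sums largely follow single genes.

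The size of the change moved with base composition. The GC content of the expressed transcripts was 34.2% for SMC4, 38.1% for SMC2, 38.4% for NCAPG, 43.9% for NCAPG2, 47.3% for NCAPD3, 48.4% for NCAPH, 51.5% for NCAPD2 and 61.6% for NCAPH2. The core genes and NCAPG were thus in the lowest quartile of the tested genes and NCAPH2 in the highest. Across all tested genes, 29.2% of the lowest quartile and 1.82% of the highest were called lower, and the median log2 fold change was -0.16 in the lowest and 0.26 in the highest. The trend was seen in each IR library and was steepest in replicate 3, where the median log2 value over the untreated mean was -0.23 in the lowest and 0.36 in the highest quartile, against -0.10 and 0.16 in IR replicate 1. In that library SMC4 was at -0.93 and NCAPH2 at 0.36 on the same log2 scale. With the trend of each library removed, 8 of 8 genes were called lower, against 13.3% of all tested genes. The log2 fold changes became -0.55 for SMC2, -0.40 for SMC4, -0.23 for NCAPG, -0.18 for NCAPH, -0.26 for NCAPD2, -0.37 for NCAPG2 and -0.52 for NCAPD3, which was then below SMC4. NCAPH2 changed sign, to -0.28 (SE 0.09, 95% CI -0.47 to -0.08, adjusted p = 0.0439). The medians were then -0.47 for the core, -0.23 for condensin I and -0.37 for condensin II, beside -0.01 for all tested genes. What part the base composition has in the measured changes was not tested.

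**Figure D2:**
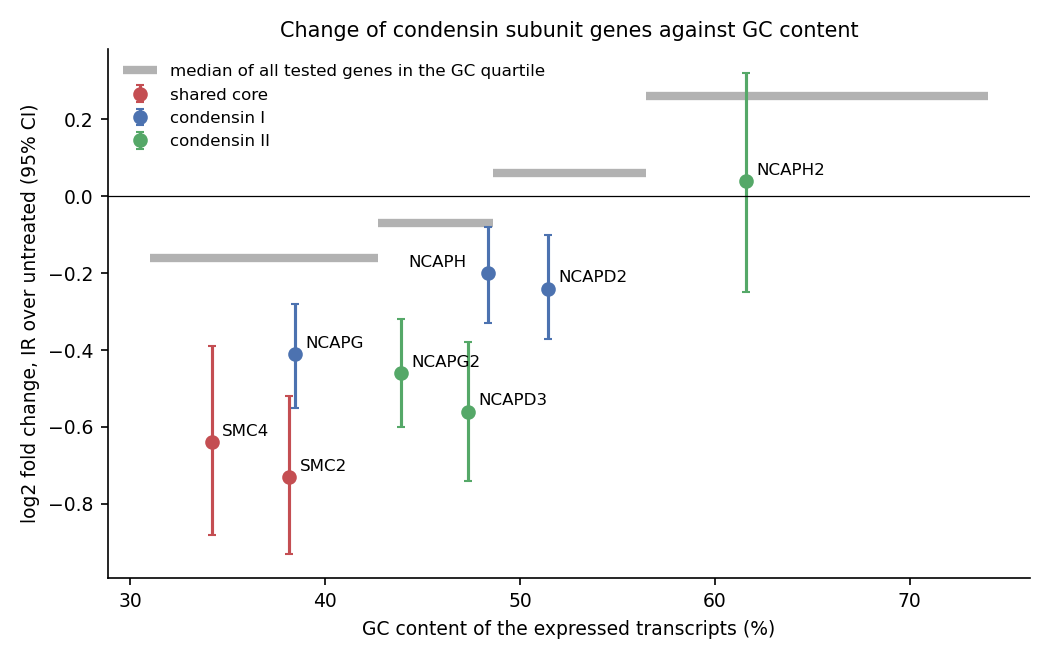
Log2 fold change of IR over untreated (vertical axis, bars 95% CI) of each condensin subunit gene against the GC content of its expressed transcripts in percent (horizontal axis), with grey lines for the median of all tested genes in each quartile of GC content. SMC4 and SMC2 lie at low GC content and at -0.64 and -0.73, and NCAPH2 at 61.6% and 0.04. All 8 points lie below the grey line of their quartile.

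The effective length, which differed between libraries for the same transcript, was a further feature of the files. It was averaged over the transcripts of a gene in each library, weighted by TPM. The average therefore also moves with the estimated mix of transcripts. With this average as an offset, 6 of 8 genes were called lower, against 6.11% of all tested genes. The log2 fold change was then -0.97 for SMC2, -0.69 for SMC4, -0.55 for NCAPG, -0.31 for NCAPD2, -0.44 for NCAPG2 and -0.65 for NCAPD3. NCAPH was not called, at -0.16 (adjusted p = 0.261), nor was NCAPH2, at 0.12 (adjusted p = 0.649).

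**Figure D3:**
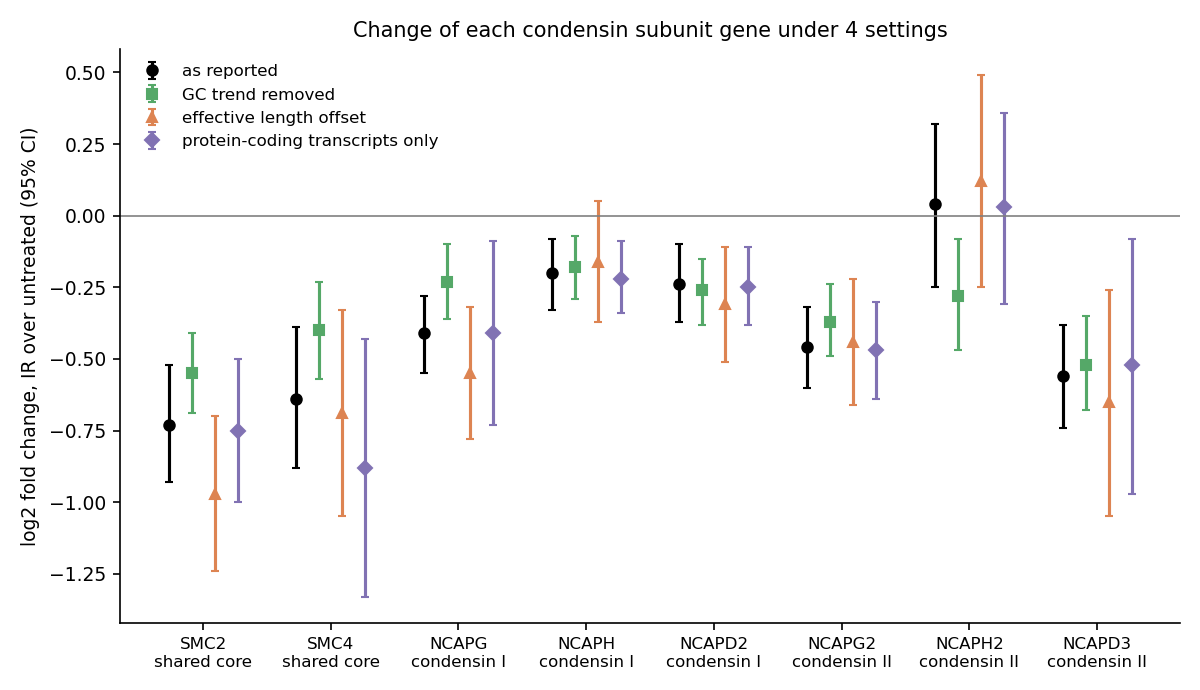
Log2 fold change of IR over untreated (vertical axis, bars 95% CI) of each condensin subunit gene as reported and under 3 other settings, which remove the trend with GC content, use the effective length as an offset, or count protein-coding transcripts alone. In 7 genes all points lie below 0, and NCAPH2 lies between -0.28 and 0.12.

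The files give each transcript, so the transcripts behind these sums could be compared. Transcript usage, the share of a gene's counts that each of its transcripts takes, was called as changed in 0 of the 8 genes (diffSpliceDGE of edgeR, Simes p per gene), against 2.73% of 10661 tested genes, and 1 of the 8, SMC2, passed 0.05 before adjustment. SMC2 had an adjusted p of 0.567 by that test. Without IR replicate 2, SMC2 was called (adjusted p = 0.0120). In SMC2 the 3 main transcripts are all annotated as protein coding. The canonical SMC2-203 took 19.5%, 26.5% and 18.4% of the counts in untreated cells and 27.9%, 46.4% and 33.9% after IR. SMC2-202 took 46.3%, 47.3% and 55.2% in untreated cells and 42.1%, 40.4% and 34.7% after IR. SMC2-201 took 32.0%, 23.6% and 23.7% before and 29.5%, 11.98% and 28.6% after IR. The groups did not overlap for SMC2-203 and SMC2-202 and did for SMC2-201. Over the 8 genes, the groups did not overlap in 5 of 25 transcripts with at least 5% of the counts of their gene, the others being SMC4-218, NCAPD2-201 and NCAPH2-203, against 17.2% of 32831 such transcripts over all genes tested for usage.

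In several subunit genes, many of the estimated counts were assigned to transcripts not annotated as protein coding. In SMC4, transcripts with a retained intron took 30.7%, 30.6% and 43.6% of the counts in untreated cells and 38.4%, 50.2% and 46.6% after IR, with overlapping groups. Among them SMC4-203 alone took 19.4% to 29.9% in untreated and 26.5% to 40.3% in IR libraries. In NCAPG, the nonsense-mediated decay transcript NCAPG-205 took a mean of 60.7% in untreated and 60.8% in IR libraries. In NCAPD3, transcripts of that class took 85.4% and 85.0%, nearly all of it on NCAPD3-211 and NCAPD3-202. How the counts of a gene divide between its transcripts is an estimate, and it varied between libraries. In untreated cells NCAPD3-211 took 47.4%, 32.0% and 34.4%, and NCAPD3-202 took 34.1%, 47.6% and 46.9%. Whether these shares match the RNA present was not tested. At the other end, the canonical NCAPD2-201 took 88.9% to 96.1% of the counts of NCAPD2. With protein-coding transcripts alone, SMC4 was at -0.88 (adjusted p = 0.0211) and SMC2 at -0.75 (adjusted p = 0.00690), whereas NCAPG (-0.41, adjusted p = 0.0721) and NCAPD3 (-0.52, adjusted p = 0.0928) were no longer called. The labels name a poly(A) RNA library and the study's methods total RNA, which bears on how such transcripts are read.

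**Figure D4:**
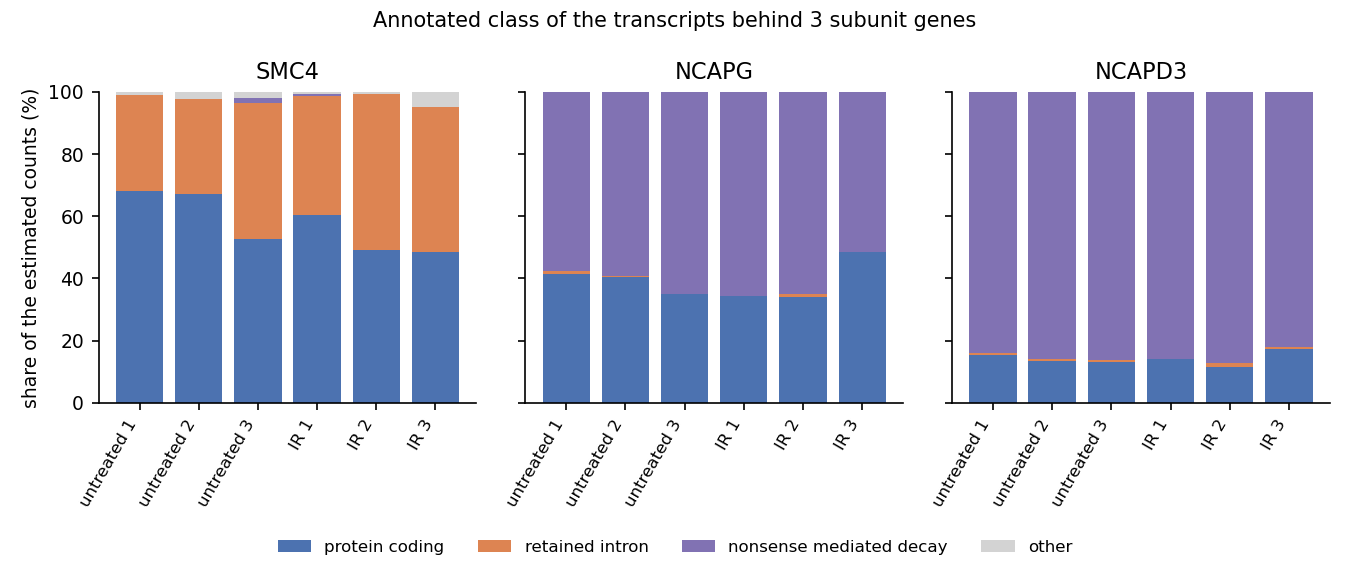
Share of the estimated counts (percent, vertical axis) that fell on each annotated class of transcript in SMC4, NCAPG and NCAPD3, with 1 bar for each of the 6 libraries. Retained-intron transcripts took 30.6% to 50.2% of SMC4, and nonsense-mediated decay transcripts a mean of 60.7% of NCAPG and 85.4% of NCAPD3 in untreated cells.

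Exons of 5 of the genes overlap those of other genes on the opposite strand, and whether the reads were assigned by strand is not given in the sources used here. SMC4 shares 1553 bases with TRIM59 (log2 fold change -0.35, adjusted p = 0.00727) and 243 with IFT80. NCAPG shares 1634 bases with LCORL, which also fell (-0.56, adjusted p = 0.00247). NCAPD2 shares 383 bases with MRPL51 (0.07, adjusted p = 0.463). NCAPD3 shares 1889 bases with JAM3 (-0.02, adjusted p = 0.870) and 249 with VPS26B. NCAPH2 shares 857 bases with SCO2 (0.45, adjusted p = 0.115) and 855 with a long non-coding RNA on its own strand. SMC2, NCAPH and NCAPG2 overlap no other gene in their exons. Counts in these shared stretches are therefore uncertain.

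Genes that regulate condensin or act with it on mitotic chromosomes fell in part. Of 15 such genes, 10 were called lower and 0 higher, against 14.5% and 15.5% of all tested genes. Their median was -0.27 on the log2 scale. The lowest was MKI67, which encodes the Ki-67 protein that coats mitotic chromosomes, at 716 ± 48.4 CPM in untreated cells and 335 ± 61.8 CPM after IR (SD, n = 3), a log2 fold change of -1.10 (adjusted p = 4.20e-04). TOP2A, the topoisomerase that decatenates sister DNA, was at -0.54 (adjusted p = 0.00130), and KIF4A, a chromokinesin that works with condensin I, at -0.35 (adjusted p = 0.00569). The mitotic kinase gene PLK1 was at -0.24 (adjusted p = 0.0153), and CSNK2A2 had the smallest decrease among the called genes, at -0.20 (adjusted p = 0.0311). CDK1 and CCNB1, whose products form the kinase that phosphorylates condensin in mitosis, were not called, with -0.13 (adjusted p = 0.169) and -0.02 (adjusted p = 0.868). MCPH1, an inhibitor of condensin II, was not called either, with -0.17 (adjusted p = 0.129).

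The other SMC complexes were compared as the families most like condensin. Over all tested genes, 14.5% were called lower and 15.5% higher. In cohesin, which holds sister chromatids together, 12 of 15 genes were called lower and 0 higher, and the median log2 fold change was -0.43, as for the condensin genes. Its core ATPases SMC1A and SMC3 were at -0.47 (adjusted p = 0.00177) and -0.51 (adjusted p = 0.00484). The loader gene NIPBL had the largest decrease, at -0.61, and CDCA5, which encodes sororin, the smallest called, at -0.26. In the SMC5/6 complex, which acts in DNA repair, 4 of 9 genes were called lower and 1 higher, with a median of -0.16. SMC5 was at -0.47 (adjusted p = 0.0192), SMC6 at -0.35 (adjusted p = 0.0283), SLF2 at -0.48 and NSMCE1 at 0.36 (adjusted p = 0.0391). With the GC trend removed, the called lower genes were 12 of 15 for cohesin and 1 of 9 for SMC5/6, against 13.3% of all tested genes. The differences between these families were not tested.

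Cell cycle genes gave the wider setting. Their counts stand beside 14.5% of all tested genes called lower and 15.5% called higher. Among 20 G2 and M phase genes, the test called 14 lower and 0 higher, with a median of -0.40, between CENPF at -0.86 and AURKA at -0.29 among those called. The fall was not uniform over this list. Those not called were CENPA at -0.26, CDC20 at -0.10, CCNB2 and PTTG1 at -0.08, UBE2C at 0.02 and BIRC5 at 0.03. Of 20 genes of S phase, 13 were called lower and 0 higher, with a median of -0.24, between E2F8 at -0.87 and UHRF1 at -0.18. Of 15 genes of MuvB, DREAM and the mitotic activators, 6 were called lower and 0 higher, with a median of -0.20. RBL1, which encodes the pocket protein p107, was at -0.65, and MYBL2 and FOXM1, which encode the activators named above, were both at -0.22 (adjusted p = 0.0310 and 0.0327). The median of the condensin genes was therefore close to that of the G2 and M phase genes, as a description of these lists.

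**Figure D5:**
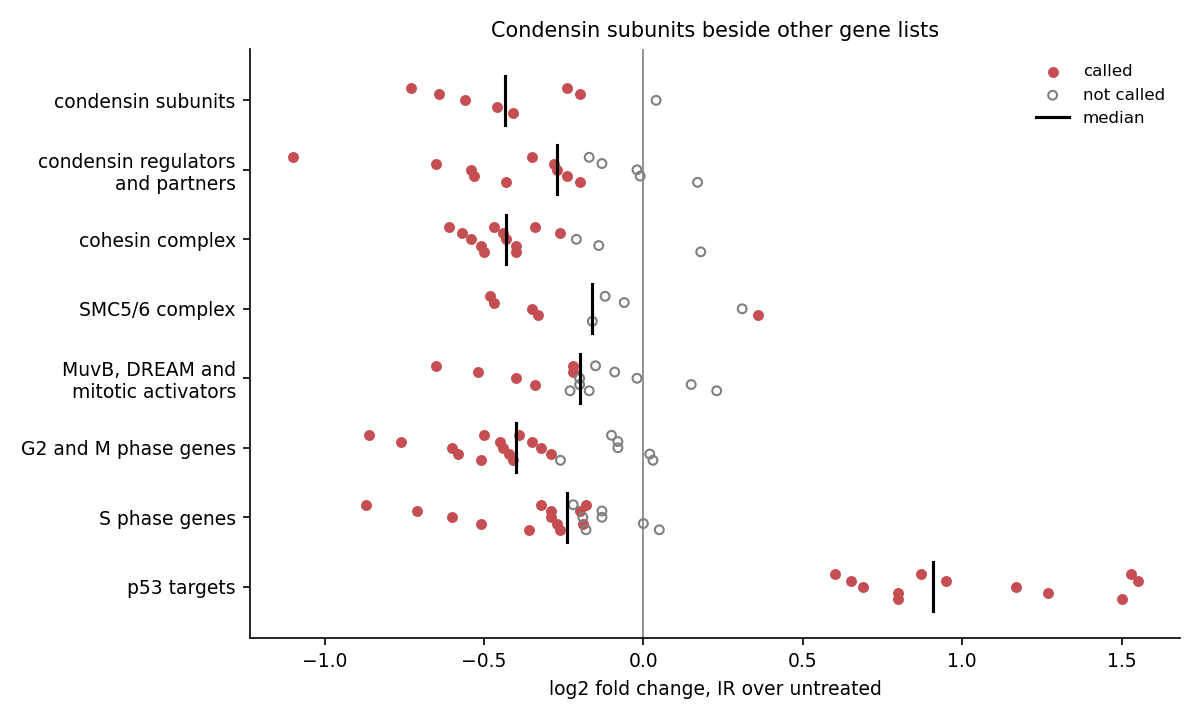
Log2 fold change of IR over untreated (horizontal axis) of the 8 condensin subunit genes and of 7 other gene lists, 1 point for each gene, filled where the gene was called and open where it was not, with the median of each list as a black line. The medians of condensin and cohesin genes both lie at -0.43, and all 12 p53 targets lie above 0.

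The genes whose pattern was most like that of the condensin genes were searched over the 6 libraries. The likeness was Pearson's r between the log2 CPM of a gene and the mean centred log2 CPM of the 8 genes, which lay between 0.19 and 0.20 in the untreated and between -0.23 and -0.17 in the IR libraries. With 6 libraries in 2 groups, r mainly reflects the difference between the groups, and 63 of 11667 genes reached 0.99. The 5 highest were PASK (r = 0.999, log2 fold change -0.26), RTL6 (0.999, -0.21), XPO1 (0.997, -0.48), GPSM2 (0.997, -0.73) and ZNF445 (0.997, -0.37). GPSM2, which encodes a spindle orientation protein, was at 111, 116 and 115 CPM in untreated cells and at 70.0, 68.6 and 68.0 CPM after IR. XPO1, which encodes the main nuclear export receptor, was at 548, 557 and 571 CPM before and at 417, 391 and 393 CPM after IR.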

How the data were processed

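The bulk libraries of U-2 OS were 3 untreated and 3 IR samples, grouped by the labels. The authors pseudoaligned the reads with kallisto to GENCODE release 37 (GRCh38) and deposited 4 measures per transcript. The estimated count was deposited without normalization, TPM was scaled by the authors to the effective length, and the lengths are in bases. Gene symbols came from GENCODE release 44, matched on the transcript identifier. Of 161171 transcripts per library, 2580, with 1.56% to 1.83% of the counts, were not matched and not used. Sums of the estimated counts per gene were rounded, filtered by filterByExpr and scaled by TMM. The test was glmQLFit with glmQLFTest in edgeR 4.0.16, run in R 4.3.3 with limma 3.58.1, and DESeq2 1.42.0 served for an alternative. An adjusted p (Benjamini–Hochberg) under 0.05 was called. CPM values use TMM-scaled library sizes. The SE is the size of the log2 fold change divided by the root of F. The GC trend was a spline with 5 degrees of freedom fitted in each library over genes averaging 20 counts or more. Deeper libraries have a smaller counting error, which is small for these genes at this depth. The scripts were tested on simulated data. Replicates of a group differed by more than sampling noise, the chi-square per gene being at least 3.47.

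The members and lists were chosen with earlier results of these data known. Named genes were the 8 subunits, the called genes with the lowest and the highest log2 fold change in each list, chosen regulators, the SMC genes of the other complexes, CDKN1A, and the 5 genes of the most similar pattern averaging at least 100 counts. Transcripts with at least 5% of the counts of a gene were listed. Some genes that this rule names are left out of the text, and the uncalled G2 and M phase genes are named outside it. Alternatives were other filters and normalizations, the likelihood ratio test of edgeR, the Wald test of DESeq2, blocking on the replicate number, the GC trend, the effective length, protein-coding transcripts alone, deposited TPM for the ratios, and leaving out each library. The other experiments of the study were not analysed here.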

Additional observations from a re-analysis of the deposited data

How the results depend on the processing

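Of 365 alternative values, 318 were classed as the same, 28 moved, 13 lost the call and 6 reversed. Fold changes classed as the same kept their direction and their side of the threshold, and counts stayed within a set margin. The IR minus untreated difference in the percent of condensin I was 0.01 in the main run and -0.66 to 0.96 in the alternatives. All of these were classed as the same, although some changed sign. For causes of these shifts, beyond fewer libraries or fewer counts in some alternatives, the cause was not tested. SMC2, SMC4 and NCAPG2 were called lower under every alternative run. With the effective length as an offset, 836 genes were called higher and 875 (6.11%) lower instead of 2226 and 2080, and NCAPH was at -0.16. Under this offset, 6 of the regulators, 7 of cohesin, 1 of SMC5/6, 2 of MuvB and DREAM, 9 of G2 and M phase and 4 of S phase were called lower. Removing the GC trend left 1 SMC5/6 gene called lower, against 13.3% of all tested genes, and put NCAPH2 at -0.28. Both groups carry replicate numbers 1 to 3, and the labels do not say whether these pair the samples. The correlations of the deviations of same-numbered libraries were -0.02, 0.01 and -0.05. With 3 libraries per group these values cannot decide whether the samples were paired. With a replicate block, 5 of the 8 condensin genes were called lower, beside 1624 (11.3%) of all tested genes, NCAPH (-0.20, adjusted p = 0.0732) and NCAPD2 (-0.24, adjusted p = 0.0551) were not, and 151 genes were called for transcript usage instead of 291. Not every library correlated best with its own number. With the block and the GC trend removed, 1375 genes were called higher, NCAPH was at -0.18 (adjusted p = 0.0606) and NCAPH2 at -0.29 (adjusted p = 0.0288). In that fit 1 SMC5/6 gene was called lower, against 11.7% of all tested genes. Counting protein-coding transcripts alone and removing the GC trend without IR replicate 3 were chosen after seeing the data. The first gave 1274 genes higher, NCAPG at -0.41 and NCAPD3 at -0.52 without a call, and the SMC2 over SMC4 log2 ratio difference, an alternative planned for the ratios, at 0.16. The second gave 1440 genes higher and NCAPH2 at -0.39 (adjusted p = 0.00101). Deposited TPM put the NCAPG over NCAPG2 ratio difference at -0.11. A filter of 10 counts in every library left 69 genes called for transcript usage. Leaving out 1 library in turn gave 1293 to 2112 genes higher and 1244 to 2283 lower, the lowest counts without untreated replicate 1 (1293 higher, 1287 lower) and untreated replicate 2 (1354 higher, 1244 lower). It left 5 to 7 condensin genes called lower, beside 8.57% to 15.7% of all tested genes. Without untreated replicate 1, untreated replicate 2 or IR replicate 2, 5 were called, beside 8.85%, 8.57% and 9.77% of all tested genes. The log2 fold change was -0.22 to -0.19 for NCAPH, -0.26 to -0.22 for NCAPD2 and -0.17 (without IR replicate 3) to 0.13 for NCAPH2. The genes called lower were then 6 to 10 of the regulators, 2 to 4 of SMC5/6, 3 to 8 of MuvB and DREAM and 7 to 15 of S phase. Transcript usage was called in 240 to 454 genes, the most without untreated replicate 3, and in 0 or 1 condensin genes. All leave-one-out fits kept at least 2 libraries in each group.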
